A study of Mus musculus with 12 samples.

Results

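A set of 10 genes of the vessel lining and of early blood, Kdr, Flt1, Tek, Tie1, Esam, Pecam1, Cd34, Etv2, Sox18 and Tal1, were followed through 12 bulk RNA-seq libraries of mouse embryoid bodies. They are 10 of the 55487 genes in the count table and were chosen by name, by matching their Ensembl identifiers to mouse gene symbols. The cells were epiblast stem cells (EpiSCs), a primed pluripotent state, which the submitters derived in culture from embryonic stem cells and grew as floating aggregates in medium with 15% fetal calf serum. All 12 libraries came from cells carrying a FLAG-tagged Mixl1 transgene that doxycycline switches on. Mixl1 encodes a homeobox factor of the primitive streak. D1Dox_d2 (3 libraries) received doxycycline at 1 µg/mL and was collected on day 2, and NoDox_d2 (3 libraries) was collected on day 2 without the drug. D3Dox_d4 (3 libraries) received the same dose and was collected on day 4, with NoDox_d4 (3 libraries) as its undosed counterpart. The labels leave the number after the D undefined. No transgene-free cells were dosed, so an effect of doxycycline and an effect of Mixl1 cannot be told apart. The labels do not say whether replicates came from separate cultures or from more than 1 clone, and every p-value here reflects the spread among the sequenced libraries, which may be technical.

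Blood vessels and the first blood cells arise from mesoderm progenitors that carry KDR, the main receptor for the growth factor VEGFA. The ETS factor ETV2 acts early in that lineage and is known to switch on receptor and junction genes of endothelium, among them Kdr, Tek and Cdh5, while TAL1 directs progenitors towards blood. Endothelial cells then show PECAM1, ESAM and CD34 on their surface and use the TIE receptors to stabilise vessels.

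The libraries held 24100487 to 28020036 counts, so 3 counts amounted to 0.106 to 0.130 CPM (library-scaled counts, with TMM factors). Mixl1 stood at 362 to 392 CPM in D1Dox_d2 and 417 to 478 CPM in D3Dox_d4, against 91.0, 0.593 and 1.15 CPM in NoDox_d2 and 1.11 to 1.83 CPM in NoDox_d4. The library labelled NoDox_d2 replicate 1 was therefore the only one without doxycycline with Mixl1 above 1.83 CPM. Replicate 1 stood apart from its partners in both undosed groups: its correlation with them (Pearson r of log2 CPM over genes) was 0.957 and 0.961 in NoDox_d2, where replicates 2 and 3 gave 0.991, and 0.960 and 0.961 in NoDox_d4, where they gave 0.990. Many results are therefore also given without one or both of them. The 8 listed epiblast genes had a summed level of 418 to 1305 CPM. On day 4 Sox2 was the largest part of this sum. It stood at 303, 248 and 258 CPM in D3Dox_d4 and at 189, 407 and 409 CPM in NoDox_d4. Fgf5, Utf1 and Otx2 averaged 1.97, 3.86 and 4.54 CPM in D3Dox_d4. From day 2 to day 4, 6 of the 8 fell between the undosed groups, against 5.55% of all tested genes. Between the dosed groups 6 fell and 1 rose, against 21.4% and 22.6% of all tested genes. For doxycycline over no doxycycline, 3 of the 8 fell on day 2, against 13.4% of all tested genes. On day 4, 4 fell and 1 rose, against 10.2% and 13.4% of all tested genes. Without both undosed replicates 1, 1 rose and 5 fell on day 2, and 2 rose and 6 fell on day 4. That fit called 53.2% of all genes on day 2 and 38.5% on day 4. Cdh5 (VE-cadherin), the defining endothelial junction gene, did not exceed 0.693 CPM in any library except both undosed replicates 1, at 2.51 CPM on day 2 and 4.22 CPM on day 4.

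On day 2, doxycycline went with higher Kdr, Tek, Esam and Pecam1, by between 2.62 and 3.32 on the log2 scale, and with lower Etv2. On day 4, Pecam1 was the only one of the 10 genes to rise, while Cd34 and Tal1 fell. The doxycycline effects on Esam, Tek and Kdr differed between the days, each being lower on day 4. Without the drug, Kdr and Tal1 rose between day 2 and day 4.

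On day 2, 4 of the 9 genes that passed the filter on low counts rose and 1 fell, against 14.9% and 13.4% of the 18109 genes tested (28.4% in both directions together). Their median log2 fold change was 0.45, and that of all tested genes was -0.030. The libraries of the groups did not overlap for 5 of the 9 genes, as for 46.0% of all tested genes. On day 4, 1 rose and 2 fell, against 13.4% and 10.2% of all tested genes (23.5% together), with a median of -0.64 beside -0.031 for all genes. The groups did not overlap for 6 of the 9 genes, as for 40.6% of all tested genes. Tie1 did not pass the filter and is described by its counts. Without both undosed libraries numbered 1, the members called were 5 up and 1 down on day 2, and 2 up and 3 down on day 4, in a fit that called 53.2% and 38.5% of all genes.

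**Figure D1:**
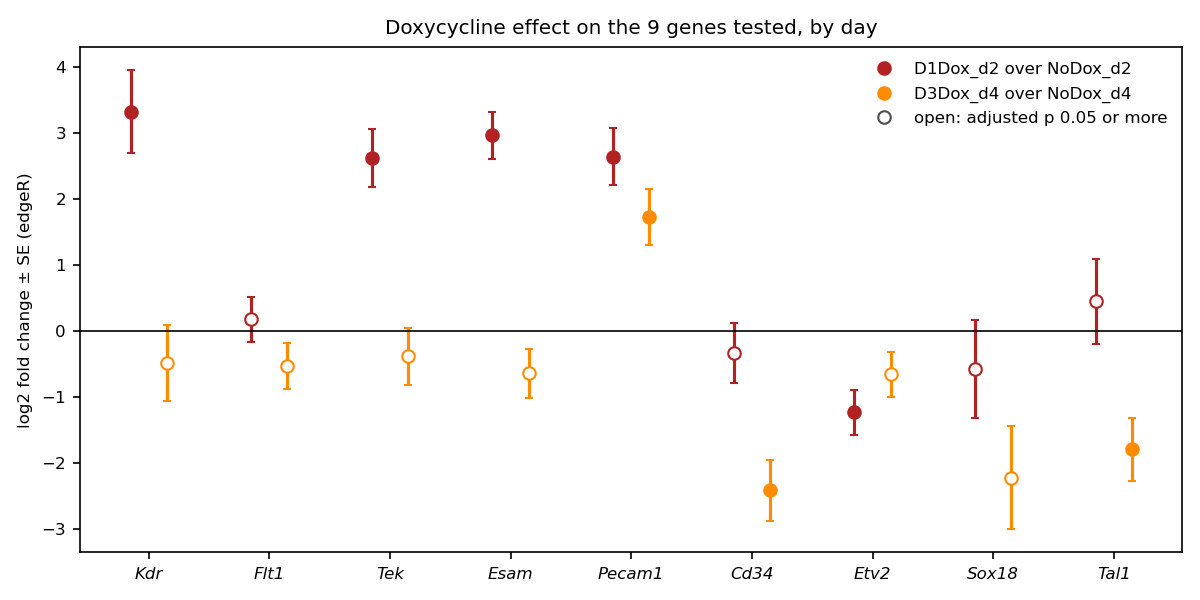
Log2 fold change (vertical axis, edgeR estimate with bars of 1 SE, 3 libraries per group) of the 9 tested genes for doxycycline over no doxycycline, with day 2 in red and day 4 in orange; filled points had an adjusted p under 0.05. Kdr, Tek and Esam lie between 2.62 and 3.32 on day 2 and between -0.64 and -0.38 on day 4, while Pecam1 lies above 0 on both days.

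The VEGF receptors are described first. Kdr encodes the main signalling receptor for VEGFA. Kdr stood at 20.5, 21.6 and 24.6 CPM in D1Dox_d2, against 3.32, 1.74 and 1.56 CPM in NoDox_d2. The groups did not overlap, and the difference was 3.32 ± 0.63 (log2 fold change ± SE, edgeR adjusted p = 0.002855), or 3.73 without NoDox_d2 replicate 1. On day 4 Kdr stood at 6.90, 10.8 and 11.7 CPM in D3Dox_d4, against 30.1, 4.68 and 6.19 CPM in NoDox_d4. Replicate 1 of the undosed group was higher than every other library of the series, and the day 4 difference of -0.48 ± 0.57 did not pass (edgeR adjusted p = 0.596). Without NoDox_d4 replicate 1 it was 0.85 (adjusted p = 0.0731), and without both undosed libraries numbered 1 it was also 0.85 and passed (adjusted p = 0.00467), so the direction on day 4 turned with 1 library.

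Flt1 encodes the other VEGF receptor of blood endothelium, which binds VEGFA tightly and signals weakly, and whose soluble form traps the ligand. Flt1 stood at 17.7, 23.0 and 25.7 CPM in D1Dox_d2, against 31.9, 11.6 and 15.1 CPM in NoDox_d2. These groups overlapped, because undosed replicate 1 held the highest level of the 12 libraries, and the difference was 0.18 ± 0.34 (edgeR adjusted p = 0.728). Leaving that library out gave 0.72 and a call (adjusted p = 0.0496), and leaving out NoDox_d2 replicate 2 gave -0.09 with no call. On day 4 Flt1 stood at 4.55, 8.26 and 6.01 CPM in D3Dox_d4, against 7.30, 11.2 and 8.65 CPM in NoDox_d4, with overlapping groups and a difference of -0.53 ± 0.35 that did not pass (edgeR adjusted p = 0.321). Without both undosed libraries numbered 1 the day 4 difference was -0.66 and passed (adjusted p = 0.0330).

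Levels of the receptors can be set against each other per length, in TPM, which divides counts by exon length and library total. The ratio of Kdr to Flt1 in TPM was 1.73, 1.40 and 1.43 in D1Dox_d2, against 0.156, 0.225 and 0.155 in NoDox_d2. In every library of D1Dox_d2 Kdr was the more abundant transcript, and in every library of NoDox_d2 it was Flt1. On day 4 the ratio was 2.27, 1.96 and 2.91 in D3Dox_d4, against 6.18, 0.625 and 1.07 in NoDox_d4. The undosed day 4 libraries lay on both sides of equality, and their replicate 1 had the highest ratio of all 12. These ratios are a description with no test.

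**Figure D2:**
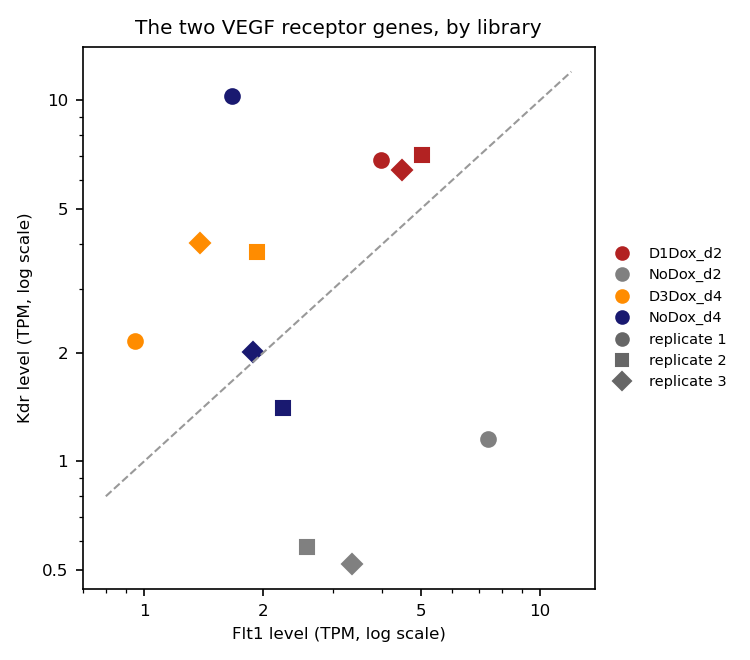
Kdr level against Flt1 level in TPM (both axes on a log scale), 1 point per library, with colour for the group and symbol for the replicate; the dashed line marks equal levels. All 6 doxycycline libraries lie above the line with Kdr to Flt1 ratios of 1.40 to 2.91, the 3 NoDox_d2 libraries lie below it at 0.155 to 0.225, and the NoDox_d4 libraries lie on both sides.

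Tek encodes TIE2, the receptor of the angiopoietins. Tek stood at 4.51, 3.91 and 5.63 CPM in D1Dox_d2, against 1.27, 0.395 and 0.595 CPM in NoDox_d2. The lowest dosed library was above the highest undosed one, and the difference was 2.62 ± 0.44 (edgeR adjusted p = 0.00132), or 3.21 without NoDox_d2 replicate 1. On day 4 Tek stood at 0.831, 1.25 and 1.07 CPM in D3Dox_d4, against 2.13, 1.02 and 0.961 CPM in NoDox_d4. These groups overlapped and differed by -0.38 ± 0.43 (edgeR adjusted p = 0.579), which became 0.09 without NoDox_d4 replicate 1.

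Tie1 encodes the other TIE receptor, which pairs with TIE2 and modulates its signalling. It was near the limit of detection: Tie1 had 0, 4 and 3 counts in D1Dox_d2, against 2, 1 and 1 counts in NoDox_d2. On day 4 it had 6, 2 and 4 counts in D3Dox_d4, against 34, 12 and 6 counts in NoDox_d4. Only the undosed day 4 libraries numbered 1 and 2 held more than 6 counts, and the day 4 groups touched at 6 counts. With no filter on low counts, a setting added for this gene after its counts were seen, no doxycycline effect passed (edgeR adjusted p = 0.639 on day 2 and 0.0814 on day 4), and NoDox_d4 exceeded NoDox_d2 by 3.66 ± 0.89 (adjusted p = 0.0114). The order Kdr, Tek, Tie1 held in TPM in every group: Kdr averaged 6.77 ± 0.331 TPM, Tek 2.72 ± 0.230 TPM and Tie1 0.0534 ± 0.0496 TPM in D1Dox_d2 (SD, n = 3).

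The promoters of Kdr and Tek, which rose together on day 2, are shown with the letters of the ETS core, the short motif that ETS factors such as ETV2 recognise. Promoter sequences came from the RefSeq table for GRCm38.p6, which held 7 of the 10 genes; Esam, Pecam1 and Sox18 had no entry. Each line gives the 250 bases before the annotated start of the gene, 5′ to 3′ on the gene's own strand, at chr5:75978456-75978705 (minus strand) for Kdr and chr4:94739039-94739288 (plus strand) for Tek, with GGAA or its reverse complement TTCC in capitals.
Kdr: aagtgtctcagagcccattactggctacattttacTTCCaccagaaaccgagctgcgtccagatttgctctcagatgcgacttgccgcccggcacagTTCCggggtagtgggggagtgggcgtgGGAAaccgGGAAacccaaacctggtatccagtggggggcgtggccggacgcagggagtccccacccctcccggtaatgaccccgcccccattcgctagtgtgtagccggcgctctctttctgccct
Tek: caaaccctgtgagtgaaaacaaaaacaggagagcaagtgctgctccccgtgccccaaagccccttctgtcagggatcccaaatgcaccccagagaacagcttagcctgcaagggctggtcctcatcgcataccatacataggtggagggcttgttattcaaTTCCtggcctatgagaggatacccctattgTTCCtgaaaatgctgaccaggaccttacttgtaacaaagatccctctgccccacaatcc
Kdr holds 4 matches to GGAA on either strand and Tek holds 2, and 93.4% of the 32851 promoter windows of the same length hold at least 1. The longer form CCGGAA was found once in Kdr, on the opposite strand, where it contains one of those matches, and was not found in Tek; 12% of all windows hold it. The E-box CANNTG, the motif family of TAL1, was found once in Kdr and at 2 places in Tek, beside 66.2% of all windows. The homeodomain core TAAT, which is short and common (54.9% of all windows), was found at 2 places in Kdr and was not found in Tek. The matches describe letters in a window and no binding was measured here.

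Esam encodes an adhesion molecule of endothelial tight junctions, platelets and some blood stem cells. Esam stood at 5.57, 5.29 and 5.33 CPM in D1Dox_d2, against 1.02, 0.395 and 0.632 CPM in NoDox_d2. The D1Dox_d2 replicates were closer together, relative to their mean, than those of any other of the 10 genes, at 5.40 ± 0.151 CPM (SD, n = 3), and the difference was 2.96 ± 0.35 (edgeR adjusted p = 0.000130), or 3.36 without NoDox_d2 replicate 1. On day 4 Esam stood at 0.434, 0.590 and 0.597 CPM in D3Dox_d4, against 1.18, 0.732 and 0.615 CPM in NoDox_d4. The groups were separated by a narrow gap, and the difference of -0.64 ± 0.37 did not pass (edgeR adjusted p = 0.245).

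Pecam1 encodes CD31, a homophilic adhesion molecule of endothelium, platelets and several white blood cells, which pluripotent stem cells can also carry. Pecam1 stood at 4.39, 4.23 and 4.81 CPM in D1Dox_d2, against 0.989, 0.593 and 0.558 CPM in NoDox_d2. The difference was 2.64 ± 0.43 (edgeR adjusted p = 0.00116), or 2.94 without NoDox_d2 replicate 1. On day 4 Pecam1 stood at 3.51, 3.02 and 2.03 CPM in D3Dox_d4, against 1.5, 0.691 and 0.384 CPM in NoDox_d4. All 6 dosed libraries were above all 6 undosed ones, the day 4 difference was 1.73 ± 0.42 (edgeR adjusted p = 0.0123), and it was 2.41 without NoDox_d4 replicate 1. A required fold of 1.5 ended the day 4 call (adjusted p = 0.0648).

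Cd34 encodes a sialomucin of endothelial and blood progenitor cells. Cd34 stood at 0.417, 0.651 and 0.217 CPM in D1Dox_d2, against 0.812, 0.356 and 0.446 CPM in NoDox_d2, with overlapping groups and a difference of -0.33 ± 0.46 (edgeR adjusted p = 0.627) that became 0.08 without NoDox_d2 replicate 1. On day 4 Cd34 stood at 0.253, 0.221 and 0.358 CPM in D3Dox_d4, against 1.93, 1.34 and 1.19 CPM in NoDox_d4. Every undosed day 4 library was above every other library of the series, and Cd34 fell by 2.41 ± 0.46 on the log2 scale (edgeR adjusted p = 0.00303), a difference that rests on 22 counts over the 3 D3Dox_d4 libraries and 113 over the 3 NoDox_d4 libraries. Without NoDox_d4 replicate 1 the difference was -2.18 and passed (adjusted p = 0.00877). An antisense gene overlaps 2.03% of its exon bases, and reads were counted without regard to strand.

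Etv2 encodes the ETS factor that starts the endothelial and blood programme in the mouse embryo. Etv2 stood at 0.985, 1.02 and 0.736 CPM in D1Dox_d2, against 1.13, 2.65 and 2.68 CPM in NoDox_d2. The groups did not overlap, but NoDox_d2 replicate 1 lay closer to the dosed libraries than to its own partners. Etv2 fell by 1.23 ± 0.34 on the log2 scale (edgeR adjusted p = 0.0209), a call that was lost with only the libraries compared (0.0584), without D1Dox_d2 replicate 2 or 3 (0.0503 and 0.0842), without NoDox_d2 replicate 2 or 3 (0.0779 and 0.0838), or with a required fold of 1.5 (0.113). Without NoDox_d2 replicate 1 it was -1.55 and passed (adjusted p = 0.00103). On day 4 Etv2 stood at 0.976, 1.18 and 1.35 CPM in D3Dox_d4, against 1.93, 1.54 and 2.04 CPM in NoDox_d4, with no overlap and a difference of -0.65 ± 0.34 that did not pass (edgeR adjusted p = 0.194).

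Sox18 encodes an SRY-related factor of endothelial and lymphatic development. Sox18 stood at 0.795, 0.163 and 0.303 CPM in D1Dox_d2, against 0.918, 0.830 and 0.149 CPM in NoDox_d2. Replicates differed more than the groups, and the difference was -0.57 ± 0.74 (edgeR adjusted p = 0.602). On day 4 Sox18 stood at 0.108, 0.442 and 0.0796 CPM in D3Dox_d4, against 1.22, 1.18 and 0.615 CPM in NoDox_d4. The groups did not overlap, and the difference of -2.22 ± 0.78 missed the threshold (edgeR adjusted p = 0.0608), while DESeq2 (0.0321), edgeR with no filter (0.0372), with only the libraries compared (0.0435) and without D3Dox_d4 replicate 2 (0.0369) called it.

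Tal1 encodes the helix-loop-helix factor required for all blood lineages. Tal1 stood at 0.227, 0.366 and 0.173 CPM in D1Dox_d2, against 0.177, 0.237 and 0.149 CPM in NoDox_d2, which is 4 to 9 counts per library, and the difference of 0.45 ± 0.64 did not pass (edgeR adjusted p = 0.638). On day 4 Tal1 stood at 0.795, 0.553 and 1.15 CPM in D3Dox_d4, against 5.25, 1.79 and 1.61 CPM in NoDox_d4. The groups did not overlap, replicate 1 was again the highest undosed library, and Tal1 fell by 1.79 ± 0.48 on the log2 scale (edgeR adjusted p = 0.0191). Without NoDox_d4 replicate 1 the difference was -1.03 and the call was lost (0.0808), but it held without both undosed libraries numbered 1 (-1.03, 0.0481). The call was also lost without D3Dox_d4 replicate 1 or 2 (0.0629 and 0.0813), with only the libraries compared (0.0553) and with a required fold of 1.5 (0.0874).

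The promoters of Cd34 and Tal1, the genes that fell together on day 4, are shown in the same form, at chr1:194938571-194938820 (plus strand) for Cd34 and chr4:115056176-115056425 (plus strand, the first of 2 starts in the table) for Tal1, with GGAA or TTCC in capitals.
Cd34: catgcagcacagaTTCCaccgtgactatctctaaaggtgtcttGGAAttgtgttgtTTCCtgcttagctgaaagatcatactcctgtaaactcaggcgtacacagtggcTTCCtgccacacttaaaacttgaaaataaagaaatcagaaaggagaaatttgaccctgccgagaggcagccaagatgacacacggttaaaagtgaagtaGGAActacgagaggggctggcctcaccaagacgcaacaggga
Tal1: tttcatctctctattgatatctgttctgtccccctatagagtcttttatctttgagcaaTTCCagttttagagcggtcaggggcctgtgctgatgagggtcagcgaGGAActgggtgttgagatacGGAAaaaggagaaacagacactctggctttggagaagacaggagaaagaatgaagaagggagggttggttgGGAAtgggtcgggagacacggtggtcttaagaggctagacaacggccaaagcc
Cd34 holds 5 matches to the ETS core and Tal1 holds 4. The GATA motif AGATAA was found once in Tal1, on the opposite strand, and in none of the other 6 promoters; 9.99% of all windows hold it. Neither window holds a match to CANNTG or TAAT. Over the 7 promoters, the number of ETS cores ranged from 2 in Tek to 10 in Etv2.

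**Figure D3:**
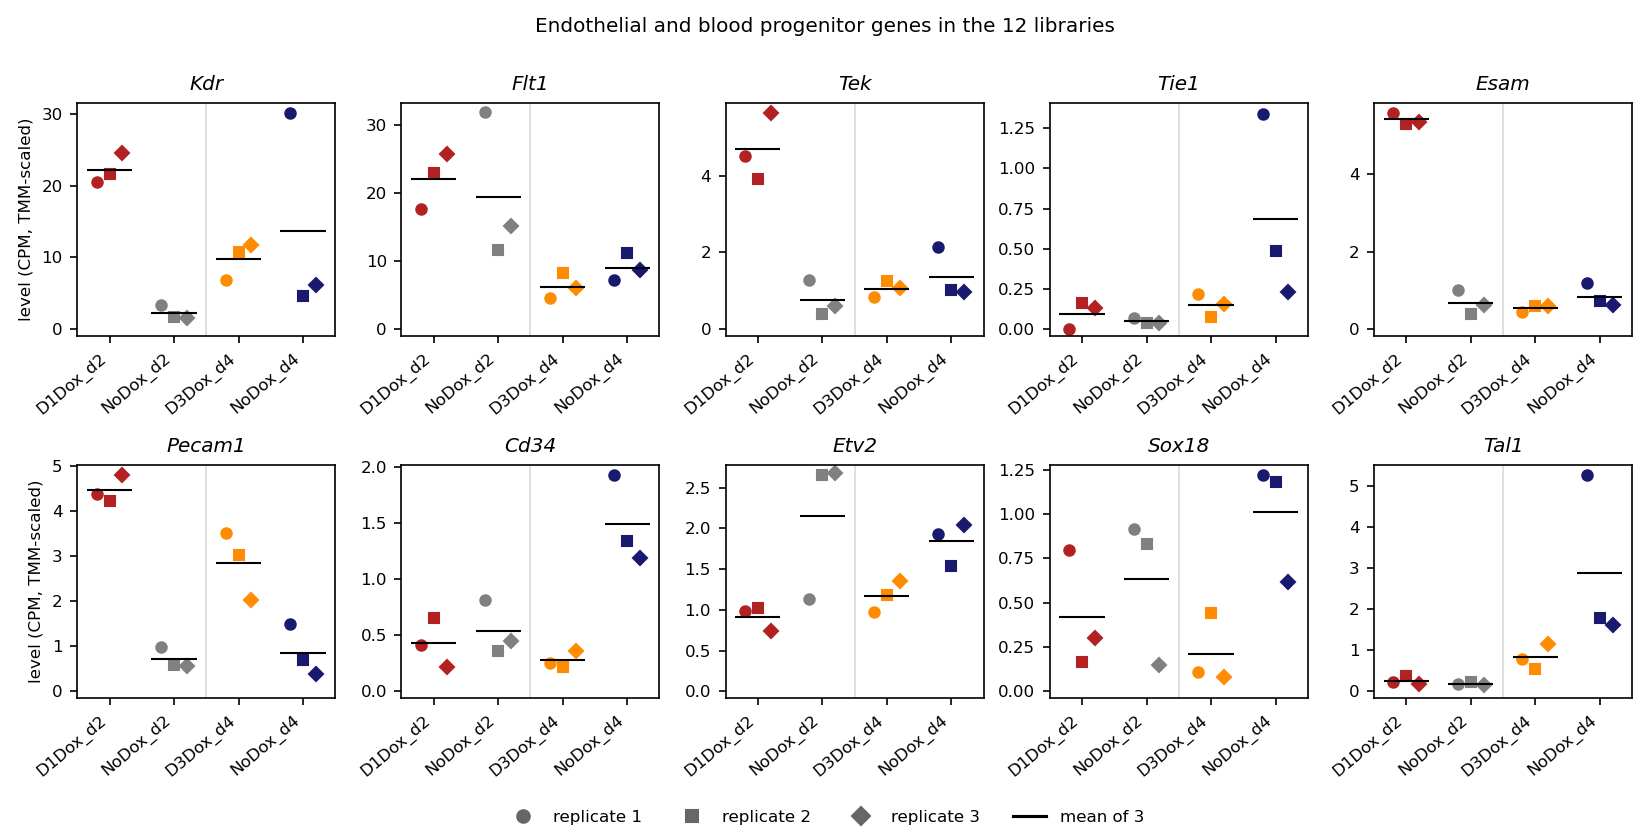
Level in CPM (vertical axis, linear, TMM-scaled, 1 axis per gene) of the 10 genes in the 12 libraries, with day 2 left and day 4 right of the grey line and doxycycline left of its undosed group; symbols are replicates and lines are means of 3. Kdr, Tek, Esam and Pecam1 are high in the 3 D1Dox_d2 libraries, and Tie1, Cd34 and Tal1 are highest in NoDox_d4, where replicate 1 (circle) stands above its partners.

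The question whether doxycycline acted alike on both days was put to the difference of the effects, day 4 minus day 2. Of the 9 genes tested, 3 had a lower effect on day 4 and none a higher one, against 6.24% and 6.66% of all genes (12.9% together), and the median was -2.08 beside 0.003 for all genes. Esam had a difference of -3.60 ± 0.51 (edgeR adjusted p = 0.00176). Tek had -2.99 ± 0.61 (adjusted p = 0.0103), or -3.59 without NoDox_d2 replicate 1. Kdr had -3.80 ± 0.84 (adjusted p = 0.0151), or -2.46 without NoDox_d4 replicate 1 (adjusted p = 0.00364). Pecam1, which rose on both days, had -0.91 ± 0.60 (adjusted p = 0.327), so a difference between its effects was not detectable. Cd34 had -2.08 ± 0.65 (adjusted p = 0.0572) and Tal1 -2.23 ± 0.81 (adjusted p = 0.0894), so their fall on day 4 is not shown to differ from day 2. Without NoDox_d2 replicate 1, 5 genes passed, as Cd34 (-2.49, adjusted p = 0.0168) and Flt1 (-1.24, adjusted p = 0.0253) were added, in a fit that called 26.9% of all genes in place of 12.9%.

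The undosed groups differ in the day of collection. Between NoDox_d4 and NoDox_d2, 2 of the 9 genes rose and none fell, against 5.09% and 5.55% of all genes (10.6% together), with a median of 0.66 beside 0.015 for all genes. The libraries did not overlap for 4 of the 9 genes, as for 23.2% of all tested genes. Tal1 rose by 3.91 ± 0.56 (edgeR adjusted p = 0.00155), with means of 2.88 ± 2.05 CPM in NoDox_d4 and 0.187 ± 0.0452 CPM in NoDox_d2 (SD, n = 3 each), and by 3.16 without NoDox_d4 replicate 1. Kdr rose by 2.62 ± 0.62 (adjusted p = 0.0201), with means of 13.7 ± 14.3 CPM in NoDox_d4 and 2.21 ± 0.967 CPM in NoDox_d2, and by 1.30 without NoDox_d4 replicate 1 (adjusted p = 0.0178). The Kdr call was lost without NoDox_d2 replicate 2 or 3 (0.0608 and 0.0736) and with only the libraries compared (0.164). Cd34 stood just outside the threshold at 1.45 ± 0.43 (adjusted p = 0.0511), and so did Flt1 at -1.11 ± 0.35 (adjusted p = 0.0665). DESeq2 called both of them. Without NoDox_d2 replicate 1, 4 members rose and 0 fell, in a fit that called 10.8% of all genes. Cd34 was among these 4 (1.87, edgeR adjusted p = 0.0252) and Flt1 was not. Esam (0.29 ± 0.36), Pecam1 (0.26 ± 0.45), Tek (0.85 ± 0.44), Etv2 (-0.22 ± 0.33) and Sox18 (0.66 ± 0.70) did not pass.

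Between the dosed groups, collection day and the number in the group name differ together and cannot be told apart. Between D3Dox_d4 and D1Dox_d2, 3 of the 9 genes fell and 1 rose, against 21.4% and 22.6% of all genes (44.0% together), with a median of -0.99 beside 0.003 for all genes. The libraries did not overlap for 6 of the 9 genes, as for 65.7% of all tested genes. Esam fell by 3.31 ± 0.36 on the log2 scale (edgeR adjusted p = 5.26e-05), with means of 0.540 ± 0.0923 CPM in D3Dox_d4 and 5.40 ± 0.151 CPM in D1Dox_d2 (SD, n = 3 each). Tek fell by 2.15 ± 0.43 (adjusted p = 0.00219) and Flt1 by 1.82 ± 0.36 (adjusted p = 0.00212). Tal1 rose by 1.68 ± 0.56 (adjusted p = 0.0293), with 66 counts over the 3 D3Dox_d4 libraries and 19 over the 3 D1Dox_d2 libraries, and 4 left-out libraries ended its call, D1Dox_d2 replicate 1 (0.0832) or 3 (0.0999) and D3Dox_d4 replicate 1 (0.0568) or 3 (0.0993). Kdr (-1.18 ± 0.57, adjusted p = 0.114) and Pecam1 (-0.65 ± 0.39, adjusted p = 0.199) did not pass when the undosed libraries shared in the estimate of the spread. With only the 6 dosed libraries in the fit, Kdr was -1.20 (adjusted p = 0.000152) and Pecam1 -0.66 (adjusted p = 0.0200), and both passed. That fit called 61.4% of all genes in place of 44.0%, so nothing particular to Kdr or Pecam1 is read from these added calls. The 5 comparisons share groups, so their values are given side by side and are not independent of each other.

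Per length, the order of the 10 genes changed with the group. In D1Dox_d2 Kdr (6.77 ± 0.331 TPM, SD, n = 3), Esam (5.23 ± 0.766 TPM) and Flt1 (4.50 ± 0.542 TPM) were the most abundant, and the ranges of Esam (4.38 to 5.85 TPM) and Flt1 (3.96 to 5.04 TPM) overlapped. Tek (2.72 ± 0.230 TPM) and Etv2 (2.45 ± 0.692 TPM) followed with overlapping ranges, then Pecam1 (1.99 ± 0.156 TPM) and Sox18 (0.739 ± 0.645 TPM), and Cd34 (0.169 ± 0.0973 TPM), Tal1 (0.166 ± 0.0777 TPM) and Tie1 were the lowest. In D3Dox_d4 Etv2 (3.39 ± 0.711 TPM) and Kdr (3.32 ± 1.02 TPM) led with overlapping ranges, ahead of Flt1 (1.42 ± 0.492 TPM) and Pecam1 (1.38 ± 0.315 TPM), whose ranges also overlapped. In NoDox_d2 Etv2 (6.22 ± 2.46 TPM) and Flt1 (4.45 ± 2.59 TPM) led with overlapping ranges, and every other gene averaged at most 1.20 TPM. In NoDox_d4 Etv2 (5.13 ± 0.980 TPM) and Kdr (4.57 ± 4.96 TPM) had the highest means, but Kdr stood at 10.3, 1.41 and 2.01 TPM, so that its place rests on replicate 1. The range of Kdr overlapped those of Tal1 (1.96 ± 1.5 TPM), Flt1 (1.93 ± 0.294 TPM) and Sox18 (1.81 ± 0.622 TPM), which were not separable from each other by their ranges either. Cd34 (0.599 ± 0.189 TPM) was at its highest in that group.

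Across the 12 libraries, Esam and Tek followed each other most closely among the 9 genes (Pearson r of log2 CPM 0.945), then Tek and Kdr (0.853). Etv2 ran opposite to Pecam1 (-0.856), Tek (-0.731), Kdr (-0.631) and Esam (-0.617), and Flt1 ran opposite to Tal1 (-0.678). Kdr and Flt1 showed no linear relation (-0.011). These values describe 12 libraries that fall into 4 groups and share their depth scaling, and carry no test. The genes most like each member over the same libraries were sought among tested genes with a mean of at least 1 CPM. Predicted genes and genes with clone names were left out. The genes found were Endod1 for Esam (0.985), Arrdc3 for Pecam1 (0.989), Lhx1 for Tek (0.979), Dym for Etv2 (0.975), Phldb2 for Kdr (0.977), Sfmbt2 for Flt1 (0.977), Rprd1b for Cd34 (0.950), Foxp4 for Tal1 (0.955) and Slc26a11 for Sox18 (0.846). Eomes, a T-box gene of the primitive streak, was next for Flt1 (0.966), and the VEGF co-receptor gene Nrp1 was the third for Kdr (0.966).

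Other genes of the same pathways were read from lists chosen with earlier results in view, and their counts stand beside 14.9% of all tested genes that rose and 13.4% that fell on day 2, and 13.4% and 10.2% on day 4. Of 8 VEGF ligand and co-receptor genes, 3 rose and none fell on day 2, with a list median of 1.06: the ligand gene Pgf (2.81 ± 0.28, edgeR adjusted p = 4.04e-05), and the co-receptor genes Nrp1 (4.02 ± 0.81, 0.00392) and Nrp2 (2.86 ± 0.67, 0.00872). Nrp1 had the same unevenness as Kdr on day 4, with 9.25, 13.2 and 14.2 CPM in D3Dox_d4, against 28.5, 3.01 and 3.42 CPM in NoDox_d4, and without both undosed libraries numbered 1 it rose on day 4 too (1.93, adjusted p = 3.25e-06). On day 4, 2 of the 8 rose, Vegfc (0.72 ± 0.19, adjusted p = 0.0160), a ligand of the lymphatic receptor, and Pgf (1.12 ± 0.27, 0.0113). Vegfa, the ligand of Kdr and Flt1, did not pass on either day (-0.87 ± 0.55 on day 2 and 0.09 ± 0.54 on day 4). It stood at 52.9, 52.4 and 49.1 CPM in D1Dox_d2, against 23.5, 119 and 139 CPM in NoDox_d2, and at 219, 226 and 205 CPM in D3Dox_d4, against 74.7, 279 and 257 CPM in NoDox_d4. Replicate 1 was the low library of both undosed groups, and without both of them Vegfa fell by 1.33 on day 2 (adjusted p = 1.83e-08) and by 0.31 on day 4 (adjusted p = 0.0121). Of 4 genes around the TIE receptors, 1 rose on both days, Angpt2, which encodes a context-dependent antagonist of TIE2. Angpt2 stood at 265, 266 and 286 CPM in D1Dox_d2, against 2.75, 1.03 and 1.15 CPM in NoDox_d2, and at 164, 173 and 189 CPM in D3Dox_d4, against 6.19, 2.48 and 1.65 CPM in NoDox_d4. Its log2 fold changes were 7.36 ± 0.48 on day 2 (adjusted p = 1.78e-06) and 5.67 ± 0.44 on day 4 (adjusted p = 6.92e-06). The TIE2 agonist gene Angpt1 did not pass on either day (-0.15 ± 0.34 and -0.38 ± 0.33), but without both undosed libraries numbered 1 it fell by 0.55 on day 2 (adjusted p = 0.000550) and by 0.44 on day 4 (adjusted p = 0.00416).

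Of 13 endothelial transcription factor genes other than the members, 11 were tested. On day 2, 1 rose, Gata2 (4.06 ± 0.40, adjusted p = 3.51e-05), a factor of blood progenitors and endothelium, and 1 fell, Hhex (-0.65 ± 0.18, 0.0198). On day 4 Gata2 rose again (2.84 ± 0.38, 0.000329), and Mef2c (-1.41 ± 0.23, 0.00123) and the venous factor gene Nr2f2 (-2.16 ± 0.51, 0.0106) fell. The list medians were -0.06 and -0.49. The ETS family gene Fli1 did not pass on either day (1.07 ± 0.92 and -1.72 ± 0.89), nor without both undosed libraries numbered 1, where its day 4 value was 0.72. Of 18 junction and surface genes, 17 were tested, of which 5 rose and 3 fell on day 2, and 4 rose and 1 fell on day 4, with medians of 0.03 and -0.02. The adhesion gene Icam2 had 142 counts over the 3 D1Dox_d2 libraries, against 0 over the 3 NoDox_d2 libraries, so it was at least 51.5-fold higher against a floor of 3 counts over the group (adjusted p = 0.000840). S1pr1, a receptor for sphingosine phosphate, rose on both days (2.35 ± 0.15 and 1.76 ± 0.15), and Plvap, of endothelial fenestrae, fell on day 2 (-1.75 ± 0.28). Cdh5, which fell on day 4 (-4.97 ± 1.46, adjusted p = 0.0289), had 2, 1 and 1 counts in D3Dox_d4, against 107, 12 and 11 counts in NoDox_d4, and without both undosed libraries numbered 1 it also rose on day 2 (2.14, adjusted p = 0.00610). Emcn, a capillary and venous sialomucin, had 0 counts in every library of both dosed groups. It had 2, 0 and 0 counts in NoDox_d2, so day 2 shows no difference. In NoDox_d4 it had 40, 4 and 5 counts, most of them in replicate 1.

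Of 12 arterial, venous and Notch genes, 4 rose and 1 fell on day 2, and 5 rose and 1 fell on day 4, with medians of 0.24 and -0.11. The Notch ligand gene Jag1 (1.74 ± 0.16 and 1.22 ± 0.16) and the Notch target Hey1 (1.15 ± 0.22 and 2.13 ± 0.22) rose on both days. Of 14 blood progenitor genes, 11 were tested, and 7 rose and 1 fell on day 2, with a median of 1.32. Among the 7 were Cbfa2t3 (1.93 ± 0.22), a partner of TAL1, and Zfpm1 (1.32 ± 0.13), a partner of GATA factors. Runx1 (3.33 ± 0.68), Spi1 (2.73 ± 0.58) and Ptprc (2.43 ± 0.48) were also among the 7, and the stem cell factor receptor gene Kit fell (-1.10 ± 0.19). Spi1 and Ptprc are also expressed in macrophages, whose markers moved in the same libraries as described next. On day 4, 3 of the 11 rose and 1 fell, with a median of 0.23, and Ikzf1, a lymphoid factor, had the highest rise (3.45 ± 0.27, adjusted p = 7.37e-06). Embryonic globin genes were at or near 0, and of 7 red cell genes only 2 passed the filter. Hbb-bh1 and Hbb-y had 0 counts in D1Dox_d2, D3Dox_d4 and NoDox_d2. In NoDox_d4 Hbb-bh1 had 1, 8 and 10 counts and Hbb-y had 1, 1 and 0 counts. Without both undosed libraries numbered 1, the counts on day 2 became 4 up and 3 down for the VEGF list, 2 and 1 for the angiopoietin list, 5 and 2 for the transcription factors, 10 and 4 for the junction list, 5 and 3 for the Notch list and 8 and 1 for the blood list. On day 4 they became 4 and 1, 2 and 1, 5 and 2, 5 and 5, 7 and 2, and 5 and 2 in the same order. That fit called 53.2% of all genes on day 2 and 38.5% on day 4, so nothing particular to the lists is read from these higher counts.

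**Figure D4:**
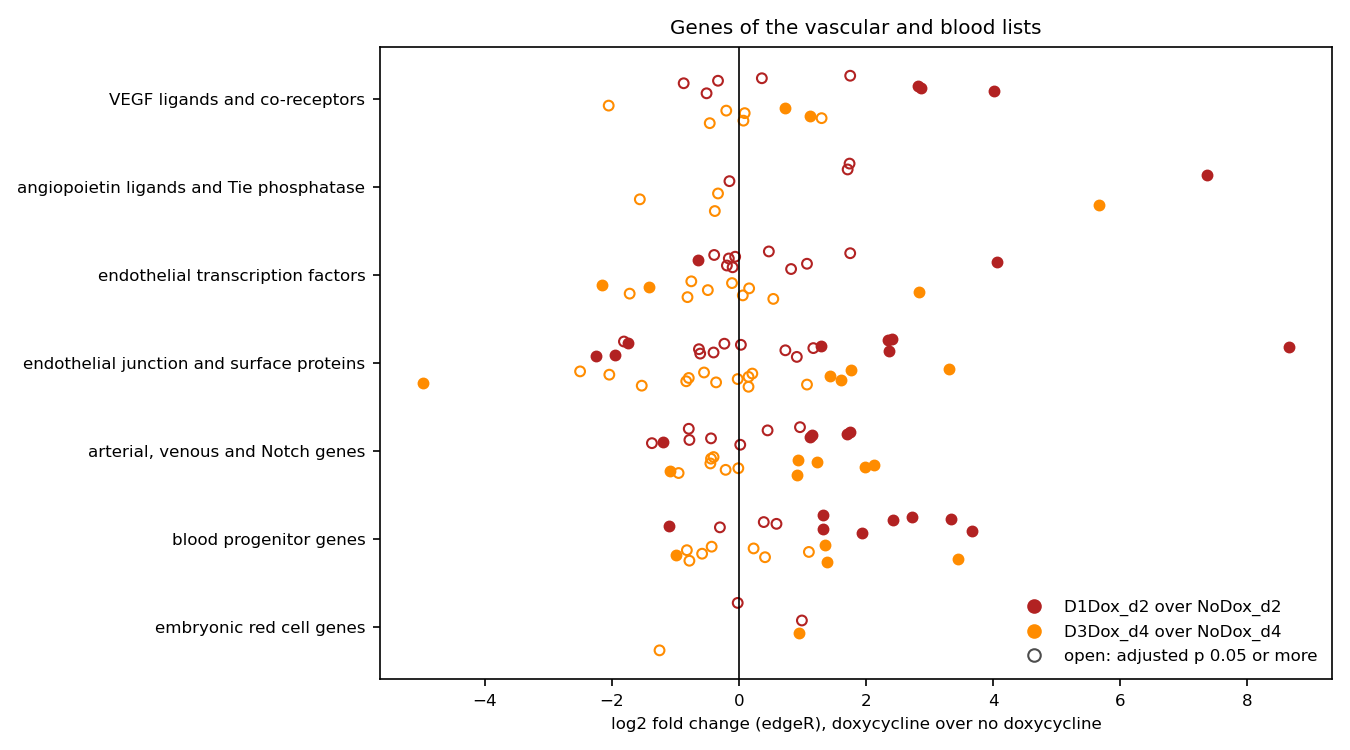
Log2 fold change (horizontal axis, edgeR) of each tested gene of 7 vascular and blood lists (rows), for doxycycline over no doxycycline on day 2 (red, upper) and day 4 (orange, lower); filled points had an adjusted p under 0.05. The point at 7.36 on day 2 and the point at 5.67 on day 4 are Angpt2, and the one at -4.97 is Cdh5; the rightmost day 2 point is Icam2, which had 0 counts in NoDox_d2, so that its fitted place depends on the prior count.

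Markers of other cell types, and sex-linked genes, moved with the day 2 result. Among all tested genes, 14.9% rose and 13.4% fell on day 2. Of 12 fibroblast markers 11 rose on day 2, with a summed level of 1826 to 2224 CPM in D1Dox_d2, against 283 to 404 CPM in NoDox_d2. Of 8 macrophage markers 7 were tested and 6 rose, with a sum of 49.8 to 69.1 CPM in D1Dox_d2, against 7.85 to 20.7 CPM in NoDox_d2. Of 7 sex-linked genes, 6 on the Y chromosome and Xist, 4 were tested and all 4 rose, with a sum of 17.1 to 25.0 CPM in D1Dox_d2, against 1.64 to 3.07 CPM in NoDox_d2. The 10 members summed to 55.1 to 67.7 CPM in D1Dox_d2, against 41.6, 18.8 and 21.9 CPM in NoDox_d2, so D1Dox_d2 was the highest group for all 4 sums. Most of the members' sum in D1Dox_d2 was Kdr and Flt1, with means of 22.2 and 22.1 CPM, and Flt1 was not called on day 2. In NoDox_d2 replicate 1, Flt1 alone was 31.9 CPM of the 41.6. No defining marker of the fibroblast or macrophage list was at 0 in any group, and Zfy1 and Uba1y were at 0 in every group. The part of the cells behind these lists in the day 2 rise of Kdr, Tek, Esam and Pecam1 was not tested. In bulk RNA, more or fewer cells of a type and more or less RNA per cell cannot be told apart.

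On day 4 these lists did not move together. In the fit of all 12 libraries, 13.4% of all tested genes rose and 10.2% fell on day 4, and 14.9% and 13.4% on day 2. The fibroblast sum was 465 to 553 CPM in D3Dox_d4, against 698, 178 and 187 CPM in NoDox_d4, with 2 markers up and 3 down, or 5 up and 2 down without both undosed libraries numbered 1. The macrophage sum was 4.34 to 8.26 CPM in D3Dox_d4, against 5.15 to 9.27 CPM in NoDox_d4, and the sum of Y-linked genes and Xist was 0.0796 to 0.848 CPM, against 0.631 to 1.18 CPM, with no marker of either list called. Of the 7 macrophage markers tested, 0 were called on day 4, and the part of macrophages in the day 4 rise of Pecam1 was not tested. Of 8 smooth muscle and pericyte markers, 1 rose and 3 fell on day 2 and 3 fell on day 4, with sums of 219 to 271 CPM in D1Dox_d2, against 207 to 215 CPM in NoDox_d2, and of 42.5 to 48.4 CPM in D3Dox_d4, against 161, 42.8 and 37.8 CPM in NoDox_d4. In the fit without both undosed libraries numbered 1, 3 of them rose and 3 fell on day 2, and 3 rose and 2 fell on day 4. Of 10 early mesoderm markers, 8 were tested, none rose and 3 fell on day 2, and 1 fell on day 4. In the same reduced fit, 4 rose (Eomes, Hand1, Bmp4 and Pdgfra) and 3 fell on day 2, and 2 fell on day 4. The early mesoderm sum was 156 to 171 CPM in D1Dox_d2, against 1472, 134 and 188 CPM in NoDox_d2, and 36.9 to 46.9 CPM in D3Dox_d4, against 107 to 184 CPM in NoDox_d4. Most of the NoDox_d2 sum was T, at 1261, 100 and 142 CPM, against 51.1, 52.5 and 54.8 CPM in D1Dox_d2. Eomes stood at 57.4, 64.6 and 57.2 CPM in D1Dox_d2, against 88.7, 13.2 and 23.9 CPM in NoDox_d2. The replicate 1 that was high for Flt1 on day 2 was thus also high for early mesoderm genes, and the replicate 1 that was high for Kdr, Tie1 and Tal1 on day 4 was high for fibroblast and smooth muscle genes. The members summed to 18.6 to 26.4 CPM in D3Dox_d4, against 53.9, 24.6 and 22.5 CPM in NoDox_d4. Of 6 cardiac and 6 visceral endoderm markers, 3 of each were tested, and 1 cardiac marker fell on day 2 and no other was called on either day. In the reduced fit, 1 cardiac marker rose and 2 fell on day 2 and 1 fell on day 4, and 1 visceral endoderm marker rose on day 2. The reduced fit called 53.2% of all genes on day 2 and 38.5% on day 4, so nothing particular to the marker lists is read from its counts. The part of these lists in the day 4 results was not tested.

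**Figure D5:**
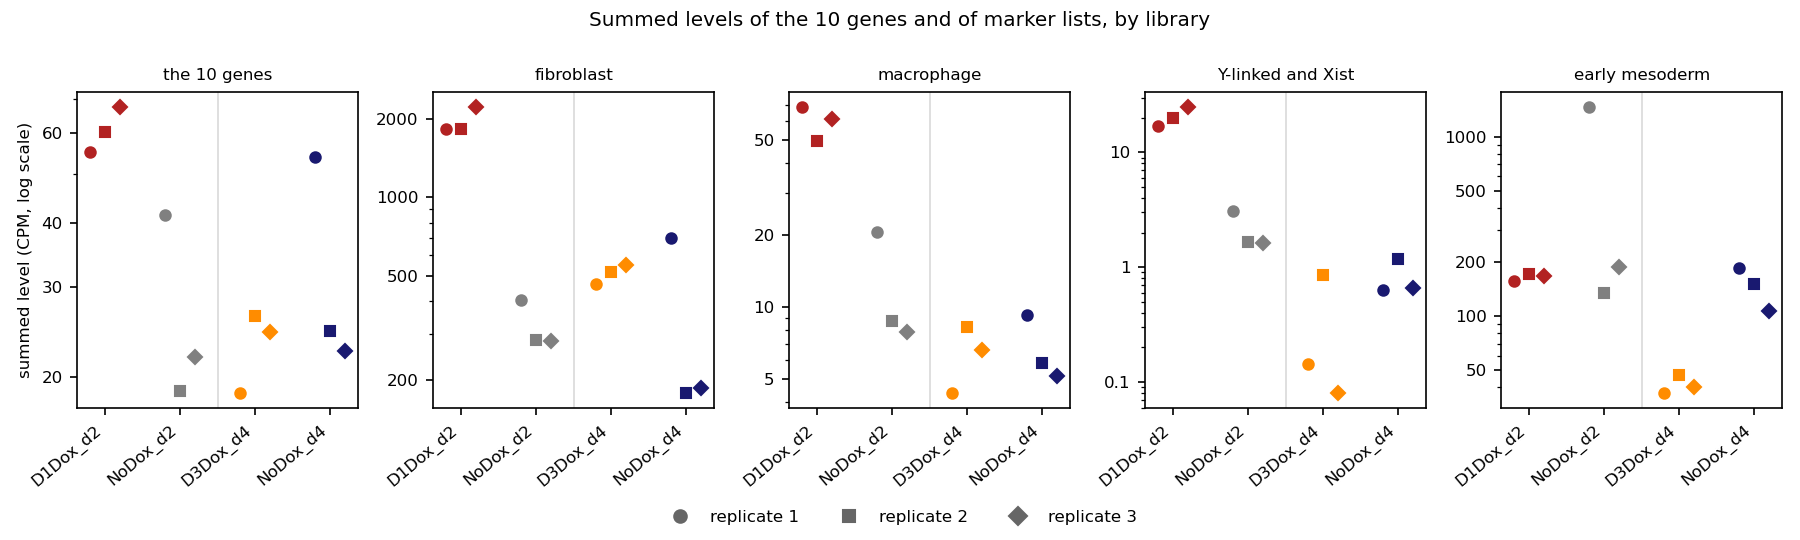
Summed level in CPM (vertical axes, log scale, 1 axis per list) of the 10 genes and of 4 marker lists in each library, with day 2 left and day 4 right of the grey line, doxycycline left of its undosed group, and symbols for replicates. D1Dox_d2 is the highest group for the 10 genes (55.1 to 67.7 CPM) and for the fibroblast, macrophage and Y-linked and Xist lists, and NoDox_d2 replicate 1 stands at 1472 CPM for early mesoderm.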

How the data were processed

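Per the file headers, the authors counted read pairs per gene with featureCounts 2.0.1 on the GENCODE vM25 annotation, without a strand option, and deposited these raw counts. The labels' protocols give paired reads of 150 bases, trimmed with Trim Galore to at least 50 bases, and the submitters' processing notes name STAR, DESeq2 and the builds GRCm38 and mm10. An Ensembl identifier led to a symbol for 55141 of the 55487 genes. The exon length of each gene, deposited in the same table, served to compute TPM.

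Counts were tested with edgeR 4.0.16 (R 4.3.3, limma 3.58.1): TMM scaling, the filterByExpr filter, which kept 18109 genes, and the quasi-likelihood F-test with 1 coefficient per group over all 12 libraries (8 residual degrees of freedom). P-values were adjusted by the Benjamini-Hochberg method over all genes tested, and a call needed an adjusted p under 0.05. DESeq2 1.42.0 was an alternative. Log2 CPM for correlations used a prior count of 2. Intervals and floors cover counting error only. The fitting steps were checked on simulated counts.

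Same-numbered libraries of the undosed groups deviated together (correlations 0.545, 0.361 and 0.308), which met the rule used for pairing (every pair over 0.1). Only 3 of these libraries deviated most like their own number in the other group. The deviations were taken from means of 3 libraries, and replicate 1 stood apart in both groups. Replicates 2 and 3 then deviate alike in any case, so the rule cannot show that the libraries were paired. The replicate block changed no call of a member between NoDox_d4 and NoDox_d2.

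The 10 genes, the pathway lists and the marker lists were chosen with earlier results of these data known. Named genes were all members, Mixl1, at most 3 called genes with the lowest adjusted p per pathway list and comparison, and the genes most correlated with each member. The last were sought only among tested genes with a mean of at least 1 CPM and no predicted or clone name. Cdh5, Emcn, Vegfa, Angpt1, Fli1, Runx1, Spi1, Ptprc and the globin genes were named after their values were seen. List counts without both undosed libraries numbered 1, and Tie1 with no filter, were alternatives added after the data were seen.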

Additional observations from a re-analysis of the deposited data

Results flagged for a closer look

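For 3 of the 10 genes the doxycycline effect differed between the days by the test of the difference itself, given as the effect on day 4 minus the effect on day 2. Esam differed by -3.60 ± 0.51 (log2 ± SE, edgeR adjusted p = 0.00176), as the effect was -0.64 ± 0.37 on day 4 and 2.96 ± 0.35 on day 2. Tek differed by -2.99 ± 0.61 (adjusted p = 0.0103), with effects of -0.38 ± 0.43 on day 4 and 2.62 ± 0.44 on day 2. Kdr differed by -3.80 ± 0.84 (adjusted p = 0.0151), with effects of -0.48 ± 0.57 on day 4 and 3.32 ± 0.63 on day 2. In the same comparison, 12.9% of all tested genes passed. The 3 genes share the same 12 libraries, and D1Dox_d2, where all 3 were high, was also the group with the highest fibroblast, macrophage and Y-linked and Xist sums. The part of the cells behind those sums in the difference was not tested.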

How the results depend on the processing

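Of the recomputed values of single members, 795 kept their direction and their side of the threshold, 23 gained a call, 28 lost one and 10 changed direction. The number of members called was 4 to 6 on day 2 when 1 library was left out, 2 to 4 on day 4, 3 to 5 for the difference of the effects, 1 to 4 between NoDox_d4 and NoDox_d2, and 3 to 4 between D3Dox_d4 and D1Dox_d2. The shares of all genes called in these fits were, in the same order, 16.4% to 39.7%, 14.6% to 22.8%, 6.56% to 26.9%, 5.66% to 17.1% and 32.0% to 35.1%. On day 4 it was 1 with a required fold of 1.5 or an adjusted p under 0.01, and 5 without both undosed libraries numbered 1, beside 3. For the difference of the effects it was 1 with an adjusted p under 0.01 and 5 without both undosed libraries numbered 1, beside 3. Between NoDox_d4 and NoDox_d2 it was 4 with no filter or with DESeq2, and 1 with only the libraries compared, a required fold of 1.5 or an adjusted p under 0.01, beside 2. On day 4 and for the difference, the share of all genes called moved the same way. On day 4 it was 6.40% with a required fold of 1.5 and 12.1% with an adjusted p under 0.01. Without both undosed libraries numbered 1 it was 38.5%, beside 23.5%. For the difference it was 3.82% and 34.5% with the last 2 of these, beside 12.9%. Between NoDox_d4 and NoDox_d2 the share fell to 5.64% with no filter, beside 10.6%, while the member count, which then included Tie1, rose. There it was 15.3% with DESeq2, 1.24% with only the libraries compared, 2.77% with a required fold of 1.5 and 4.28% with an adjusted p under 0.01.

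Direction changed in these cases, all of them with an undosed library left out, given as the range over the left-out libraries. On day 2, Flt1 ranged from -0.09 (without NoDox_d2 replicate 2) to 0.72, and Cd34 from -0.76 to 0.08 (without NoDox_d2 replicate 1), with 0.09 without both undosed libraries numbered 1. On day 4, Tek ranged from -0.58 to 0.09 and Kdr from -0.88 to 0.85, the upper values both without NoDox_d4 replicate 1 and again without both. Between NoDox_d4 and NoDox_d2, Esam ranged from -0.03 to 0.70 and Pecam1 from -0.41 to 0.61, the lower values without NoDox_d4 replicate 1, and Pecam1 was -0.10 without both. Mixl1 ranged from -0.53 to 5.17 for the difference of the effects and from -4.92 to 0.77 for NoDox_d4 over NoDox_d2, with -0.49 and 0.73 without both. Its values turn on NoDox_d2 replicate 1, at 91.0 CPM. For the others the cause was not tested.

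With the replicate block, 5 members were called on day 2, 4 on day 4 (Sox18 was added, adjusted p = 0.0363), 3 for the difference, 2 between NoDox_d4 and NoDox_d2 and 4 between D3Dox_d4 and D1Dox_d2. In the same order, that fit called 28.2%, 23.8%, 13.5%, 10.2% and 44.6% of all genes. Same-numbered libraries of dosed and undosed groups did not deviate together (correlations -0.125 to -0.033 on day 2 and -0.067 to 0.037 on day 4). The difference of the effects with only the libraries compared is the fit of all 12 libraries and has no value of its own. Depth limits Tie1, Tal1, Cd34 and Sox18, which had under 10 counts in at least 1 library.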
